A study of Mus musculus with 18 samples.

Results

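The interferon-stimulated genes described here are 38 mouse genes, each named from what is known of it, of the 21153 genes that the array names. These genes, and the further lists of genes below, were chosen with earlier results of these data known. All were measured in the livers of male C57BL/6 mice, 1 Agilent one-colour array per mouse. The LFD group (4 mice) ate a diet with 10% fat and the HFD group (4 mice) a diet with 60% fat, from 6 weeks of age, and neither was treated. The LFD MTX50 group (5 mice) and the HFD MTX50 group (5 mice) ate the same diets and were given methotrexate (MTX, an antifolate that blocks the making of nucleotides), 50 mg/kg into the peritoneum in 5 rounds that began after 10 weeks of diet. All livers were taken 1 week after the last round. The RNA is that of whole liver, so that fewer cells of a type and less RNA per cell cannot be told apart. Of the 38 genes, 36 had a spotted sequence that could be named, and all 36 passed the filter on dim signals; Mx1 and Mx2, a pair of dynamin-like antiviral GTPases, were not analysed here.

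Interferons are secreted proteins by which cells warn each other of viruses and other intracellular pathogens. Type I interferons act through a receptor whose signal leads to a complex with STAT2 and IRF9 that binds the interferon-stimulated response element (ISRE) in the promoters of target genes. Interferon-gamma acts through a different receptor and mainly on promoters with gamma-activated sites (GAS). In the liver, hepatocytes, Kupffer cells (the resident macrophages) and endothelial cells all respond to interferons.

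Levels are given on the log2 scale, with 0 at the 75th percentile of the array, and a difference of 1 is a change of 2-fold. A difference is followed by its standard error (SE), and was called when its adjusted p, from limma with Benjamini-Hochberg adjustment over all probes tested, was under 0.05. Over the 18 arrays 83.8 to 90.6% of probes were well above background, and the array's 75th percentile lay between 1203 and 2263 intensity units. The arrays came from 6 slides. The LFD mice filled slide 1, LFD MTX50 mice 1 to 4 filled slide 2 and LFD MTX50 mouse 5 lay on slide 3, so that wherever the LFD mice are compared, slide and group cannot be told apart. HFD mice 1 and 2 lay on slide 4, HFD mice 3 and 4 shared slide 5 with HFD MTX50 mice 1 and 2, and HFD MTX50 mice 3 to 5 lay on slide 6. The mean level of 10 hepatocyte markers was 5.98 to 6.26 in LFD and 6.29 to 6.54 in LFD MTX50 mice. It was 5.71 to 5.85 in HFD and 5.68 to 6.21 in HFD MTX50 mice. Of the 10 markers 3 were called lower and 0 higher in HFD than in LFD livers, beside 10.4% and 18% of all genes.

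Promoter windows of 300 bases, from 250 before to 50 after a gene's start, were at hand for 29 of the 36 measured genes (RefSeq, GRCm38.p6). The ISRE core was searched for as GAAANNGAAA on both strands, and was present in 17 of the 33 windows of these genes (51.5%) and in 1131 of all 32851 windows (3.44%). The GAS core, searched for as TTCNNNGAA, was present in 8 of the 33 windows (24.2%) and in 8.30% of all windows. Both cores occurred in 5 windows of the listed genes, and in 2 of these the matches overlapped. Such a match describes the letters only. The following 6 windows are shown because the genes were called in a comparison below and hold the ISRE core; capitals mark the matches to that core, and each sequence runs 5′ to 3′ along the strand of its gene.
Irgm1, chr11:48871371-48871670, minus strand: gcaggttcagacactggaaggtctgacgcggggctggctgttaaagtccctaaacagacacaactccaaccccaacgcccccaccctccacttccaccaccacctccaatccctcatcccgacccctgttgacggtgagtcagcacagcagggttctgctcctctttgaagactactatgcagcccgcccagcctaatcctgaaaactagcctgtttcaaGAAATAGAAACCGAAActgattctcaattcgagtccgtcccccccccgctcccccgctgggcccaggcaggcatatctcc
Gbp2, chr3:142620413-142620712, plus strand: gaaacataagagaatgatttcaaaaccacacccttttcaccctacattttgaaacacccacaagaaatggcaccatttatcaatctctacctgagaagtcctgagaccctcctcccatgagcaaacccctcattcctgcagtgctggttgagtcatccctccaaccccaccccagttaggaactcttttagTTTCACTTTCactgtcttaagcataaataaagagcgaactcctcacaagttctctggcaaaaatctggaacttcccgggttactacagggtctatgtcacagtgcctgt
Ifit1, chr19:34640639-34640938, plus strand: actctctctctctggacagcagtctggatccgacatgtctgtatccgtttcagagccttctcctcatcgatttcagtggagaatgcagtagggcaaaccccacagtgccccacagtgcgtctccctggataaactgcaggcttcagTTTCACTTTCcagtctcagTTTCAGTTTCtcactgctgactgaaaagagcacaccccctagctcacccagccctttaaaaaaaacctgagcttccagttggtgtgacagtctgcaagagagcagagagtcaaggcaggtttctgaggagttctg
Ifitm3, chr7:141010695-141010994, minus strand: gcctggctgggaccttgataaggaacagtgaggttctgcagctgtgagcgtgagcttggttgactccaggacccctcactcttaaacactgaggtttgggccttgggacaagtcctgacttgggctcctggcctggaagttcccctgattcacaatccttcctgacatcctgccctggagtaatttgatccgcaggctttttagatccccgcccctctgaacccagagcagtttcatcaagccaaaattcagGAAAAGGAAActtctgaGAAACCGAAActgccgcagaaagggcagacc
Isg15, chr4:156200769-156201068, minus strand: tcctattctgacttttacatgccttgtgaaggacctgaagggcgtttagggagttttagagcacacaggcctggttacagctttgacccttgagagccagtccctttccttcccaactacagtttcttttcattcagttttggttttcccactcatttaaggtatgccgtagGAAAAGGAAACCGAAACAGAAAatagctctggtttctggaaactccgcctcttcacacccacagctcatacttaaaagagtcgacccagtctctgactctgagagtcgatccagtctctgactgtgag
Ifit3, chr19:34583279-34583578, plus strand: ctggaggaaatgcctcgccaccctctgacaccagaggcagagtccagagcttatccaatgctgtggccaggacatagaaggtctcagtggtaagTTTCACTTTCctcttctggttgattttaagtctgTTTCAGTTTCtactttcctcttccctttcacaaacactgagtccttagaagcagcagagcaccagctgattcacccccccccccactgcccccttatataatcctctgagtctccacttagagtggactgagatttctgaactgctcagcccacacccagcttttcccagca

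In Irgm1, Gbp2 and Isg15 the matches began 30, 59 and 78 bases before the gene's start. Ifit1 and Ifit3, which lie in one cluster on chromosome 19, each held a pair of separate matches, beginning 104 and 85 bases before the start of Ifit1 and 156 and 122 bases before that of Ifit3. In Ifitm3 the matches lay past the start, at 2 and 19 bases. The windows of Tap1 and Psmb9, which are read from opposite strands of chromosome 17, shared 275 bases and held neither core. Of the 12 genes with a window that fell with methotrexate on LFD 7 held the ISRE core, and of the 17 with a window that were not called there 10 did. For the difference between the effects of the drug on the 2 diets, it was 11 of the 15 called genes with a window and 6 of the 14 not called.

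The question of the first comparison was how methotrexate moved these genes in lean mice. In LFD MTX50 livers 15 of the 36 genes fell and 0 rose, beside 10.5% of all genes that fell and 17.6% that rose. The genes that fell were Dhx58, Ifit1, Ifit3, Oasl1, Gbp2, Gbp3, Gbp6, Irgm1, Tap1, Psmb9, Rsad2, Cmpk2, Bst2, Xaf1 and Parp14. The median difference over the 36 genes was -0.53, beside 0.10 over all 19597 genes tested, and 31 of the 36 differences were below 0, beside 39.9% of those of all genes. With slide as a random block the count was 2 (Irgm1 and Tap1), beside 1.73% of all genes called in either direction under that block, and the median was -0.56.

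In mice on the high fat diet most differences with the same drug were above 0. In HFD MTX50 livers 4 of the 36 genes rose (Irf9, Stat2, Isg15 and Parp14) and 0 fell, beside 4.83% of all genes that rose and 6.13% that fell. The median difference was 0.42, beside -0.04 over all genes. Of the 36 differences 32 were above 0, beside 45.5% of those of all genes. Slide 5 alone held mice of both groups. Within it the median of the 36 differences was 0.70 with 33 above 0, 2 mice against 2; no gene of the array was called there by limma. Between the HFD MTX50 mice of slide 6 and the HFD mice of slide 4 it was 0.086 with 22 above 0, and the gap between these medians was not tested. Of the 36 genes 31 had the larger difference within slide 5. The count was 1 without HFD mouse 2, 3 or 4 or HFD MTX50 mouse 5, beside 5.57, 1.53, 1.44 and 5.61% of all genes. It was 7 without HFD mouse 1 or HFD MTX50 mouse 3, beside 15.5 and 9.12% of all genes called in either direction. With these groups fitted alone no gene of the array was called.

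The difference between the 2 effects, that is the treatment difference in HFD mice minus that in LFD mice, was tested directly. It was above 0 and called for 18 of the 36 genes and below 0 and called for 0, beside 8.66% and 18.1% of all genes. Its median over the 36 genes was 0.90, beside -0.11 over all genes. In 27 genes the treated mice had the lower mean on LFD and the higher mean on HFD, a combination found in 21.3% of all genes; 5 genes had the higher mean in treated mice on both diets, 4 the lower on both, and 0 the opposite combination. With slide as a random block 8 of the 18 calls held (Irf9, Dhx58, Ifit1, Oasl1, Isg15, Irgm1, Xaf1 and Parp14), beside 6.37% of all genes called in either direction, and without HFD mouse 4 the count was 11.

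**Figure D1:**
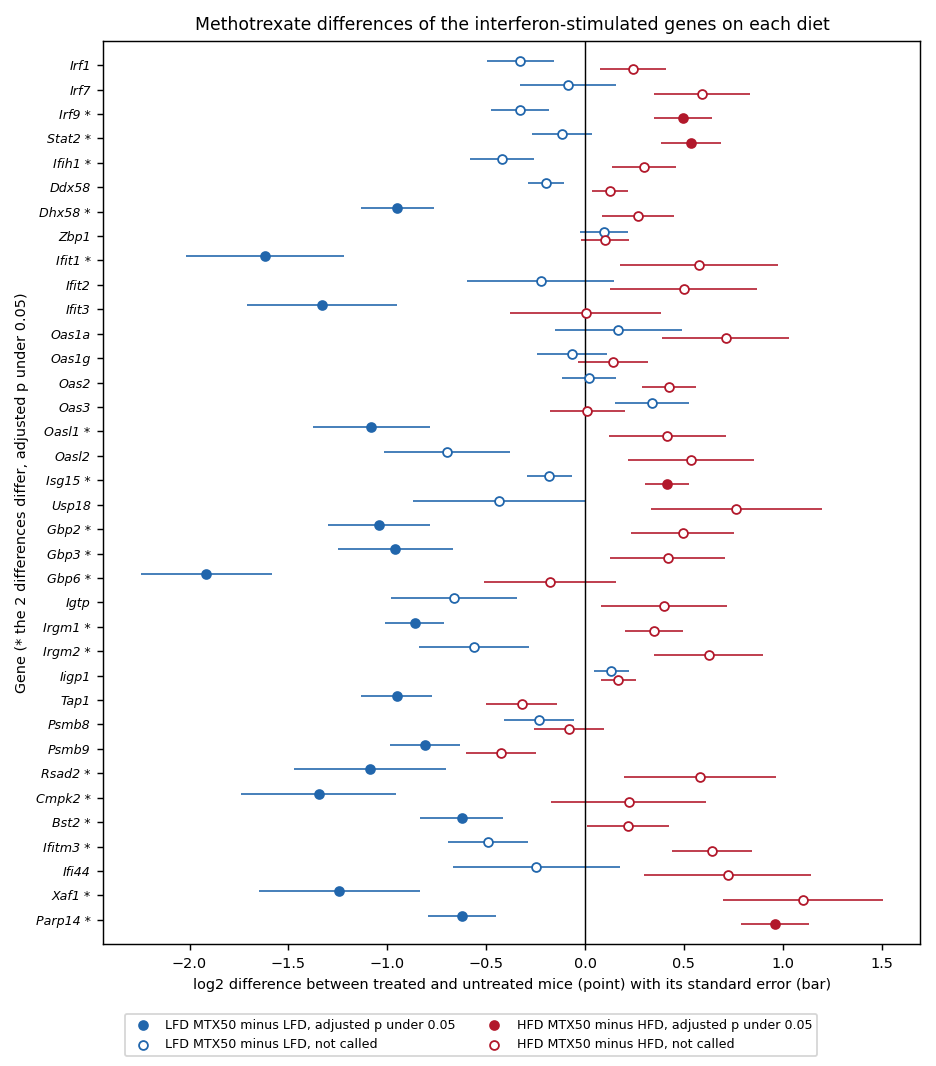
Log2 difference between treated and untreated mice with its standard error for each of the 36 genes, on LFD (blue) and on HFD (red); filled points have an adjusted p under 0.05 and a star marks genes whose 2 differences differ. The 15 filled blue points all lie to the left of 0 and the 4 filled red points to the right.

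Few of these genes were called for diet without the drug. Between HFD and LFD livers 1 gene rose (Oas1g) and 2 fell (Irgm1 and Parp14), beside 18% of all genes that rose and 10.4% that fell. The median difference was -0.26, beside 0.08 over all genes. Of the 36 differences 27 were below 0, beside 43.9% of those of all genes. The count of called genes was 0 with slide as a random block, beside 1.94% of all genes called in either direction. It was 1 without any one of the LFD mice or of HFD mice 2, 3 and 4, beside 11.5 to 23.3%. Without HFD mouse 1 it was 5, beside 31.5%.

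The immunity-related GTPases and guanylate-binding proteins are induced by interferon-gamma in particular and attack the vacuoles of intracellular pathogens. Of the 7 measured here 4 were among the 15 genes that fell in LFD MTX50 livers, beside 10.5% of all genes that fell. Irgm1, a regulator of the other immunity-related GTPases, lay at 1.74, 1.73, 1.55 and 1.67 in the LFD mice and at 1.04, 0.90, 0.78, 0.80 and 0.55 in the LFD MTX50 mice. In the HFD mice it was at 1.72, 1.12, 1.19 and 0.91 and in the HFD MTX50 mice at 1.89, 1.63, 1.31, 1.54 and 1.54. Every LFD MTX50 value lay below every LFD value, while the HFD groups overlapped. The gene fell by 0.86 ± 0.15 (SE) with methotrexate on LFD (limma adjusted p = 0.00187), differed by 0.35 ± 0.15 on HFD (adjusted p = 0.122) and differed between the diets by 1.21 ± 0.21 (adjusted p = 0.00481). It also fell by 0.44 ± 0.16 from LFD to HFD (adjusted p = 0.0449), with overlapping groups. A dimmer spotted sequence of Irgm1 gave -0.54 on LFD (adjusted p = 0.0428) and 0.46 for the difference between the diets (adjusted p = 0.213).

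Gbp6 had the largest difference of the 36 genes in LFD MTX50 livers. Its levels were 0.0057, -0.84, -0.48 and -1.14 in LFD and -2.40, -2.20, -2.60, -2.66 and -2.76 in LFD MTX50 mice, without overlap, a fall of 1.91 ± 0.33 or 3.77-fold (limma adjusted p = 0.00196). In HFD they were 0.019, -0.68, -0.45 and -1.02 and in HFD MTX50 -0.10, -1.18, -0.58, 0.12 and -1.81, where the difference was -0.18 ± 0.33 (adjusted p = 0.743). The 2 effects differed by 1.74 ± 0.47 (adjusted p = 0.0156). The second sequence of Gbp6 gave a difference of -0.73 on LFD (adjusted p = 0.0438) and of 0.46 between the effects, which was not called (adjusted p = 0.353), and the signal of Gbp6 may be shared with its close relatives.

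Gbp2 lay at 0.37, 0.0011, 0.067 and -0.52 in LFD, -1.13, -1.10, -0.98, -1.13 and -0.97 in LFD MTX50, 0.15, -0.25, -0.30 and -0.73 in HFD and 0.14, -0.10, 0.64, 0.97 and -0.61 in HFD MTX50 mice. It fell by 1.04 ± 0.26 on LFD (limma adjusted p = 0.0101), with all 5 treated mice below all untreated mice. On HFD the difference was 0.49 ± 0.26 (adjusted p = 0.202), and the effects differed by 1.53 ± 0.37 (adjusted p = 0.0096). Gbp3, its neighbour on chromosome 3, was at -0.26, -0.63, -0.77 and -0.73 in LFD, -1.69, -0.99, -1.41, -1.49 and -2.20 in LFD MTX50, -0.55, -1.06, -1.10 and -1.81 in HFD and -0.034, -0.65, -1.27, -0.30 and -1.30 in HFD MTX50 mice. The LFD groups did not overlap and the HFD groups did, with a fall of 0.96 ± 0.29 on LFD (adjusted p = 0.0235) and a difference between the effects of 1.38 ± 0.41 (adjusted p = 0.0231).

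Irgm2, which lies beside Igtp on chromosome 11, was at 2.25, 1.43, 1.45 and 1.33 in LFD, 1.12, 1.26, 1.13, 1.43 and 0.33 in LFD MTX50, 1.69, 1.01, 1.04 and 0.46 in HFD and 2.34, 1.61, 1.44, 1.73 and 1.25 in HFD MTX50 mice. The groups overlapped on both diets, and the gene was called only for the difference between the effects (1.19 ± 0.39, limma adjusted p = 0.0338). Igtp did not pass in any comparison; its LFD MTX50 values (0.56 to 1.36) nevertheless lay below all LFD values (1.51 to 2.34). Iigp1 differed by 0.13 ± 0.089 on LFD and 0.17 ± 0.089 on HFD and was not called on the sequence read here, whereas a dimmer sequence gave a called difference between the effects of 0.71 (adjusted p = 0.0243).

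**Figure D2:**
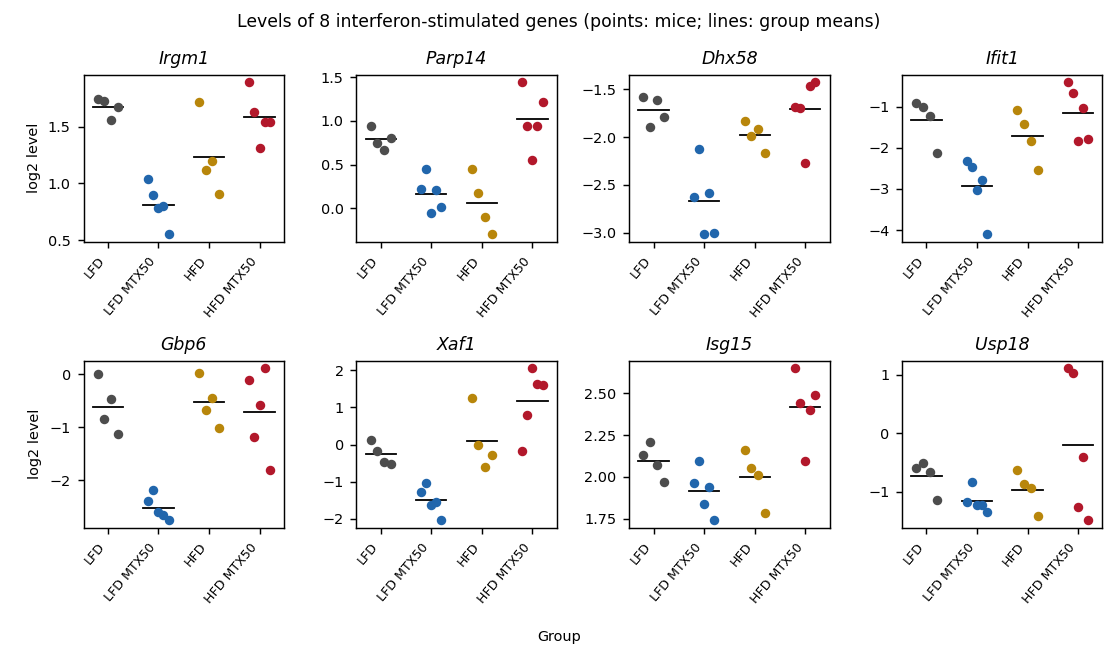
Log2 levels of 8 genes in each mouse (points) with the group mean (line), by diet and treatment; the vertical axes differ between panels. The LFD MTX50 mice lie below all LFD mice for Irgm1, Parp14, Dhx58, Ifit1, Gbp6 and Xaf1, and HFD MTX50 mice 1 and 2 stand above all other mice for Usp18.

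Of the 4 transcription factors 0 fell on LFD and 2 rose on HFD, beside 10.5% and 4.83% of all genes. Irf9, the subunit of the interferon-activated complex that contacts the ISRE, was at 1.74, 1.27, 1.51 and 1.38 in LFD and 1.48, 1.29, 1.20, 1.07 and 0.70 in LFD MTX50 mice, which overlapped. It was at 1.42, 1.18, 0.94 and 0.92 in HFD and 1.73, 1.68, 1.497, 1.63 and 1.53 in HFD MTX50 mice, which did not. Irf9 rose by 0.50 ± 0.15 on HFD (limma adjusted p = 0.0405), differed by -0.33 ± 0.15 on LFD (adjusted p = 0.0984), and the effects differed by 0.82 ± 0.21 (adjusted p = 0.0119). Within the shared slide its difference was 0.77 and over the other HFD mice 0.25.

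Stat2, the partner of IRF9 in that complex, lay at 1.00, 1.24, 0.97 and 1.13 in LFD, 1.30, 1.21, 0.81, 0.84 and 0.67 in LFD MTX50, 0.93, 0.82, 0.36 and 0.78 in HFD and 1.45, 1.30, 0.93, 1.17 and 1.42 in HFD MTX50 mice. Only HFD mouse 1 reached the lowest HFD MTX50 mouse. It rose by 0.53 ± 0.15 on HFD (limma adjusted p = 0.0351) and the effects differed by 0.65 ± 0.21 (adjusted p = 0.0335); the difference on HFD was 0.81 within the shared slide and 0.30 outside it. Irf7, which amplifies interferon production, and Irf1, which interferon-gamma induces, were not called: their differences were -0.086 ± 0.24 and -0.33 ± 0.17 on LFD and 0.59 ± 0.24 and 0.24 ± 0.17 on HFD. A second, dimmer sequence of Irf1, taken from another transcript record, moved in the opposite sense and was called for HFD against LFD (0.78, adjusted p = 0.00793), for treatment on HFD (-0.54, adjusted p = 0.0489) and for the difference between the effects (-0.80, adjusted p = 0.0244).

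The cytoplasmic RNA sensors detect viral RNA and signal towards interferon production. Dhx58 (LGP2), which tunes the other 2 RNA helicases of its family, was at -1.58, -1.90, -1.61 and -1.79 in LFD and -2.63, -2.13, -3.02, -2.58 and -3.00 in LFD MTX50 mice. It was at -1.83, -1.99, -1.92 and -2.17 in HFD and -1.69, -1.69, -2.27, -1.46 and -1.43 in HFD MTX50 mice. The treated mice lay below all untreated mice on LFD, a fall of 0.95 ± 0.18 (limma adjusted p = 0.00335), and overlapped with them on HFD (0.27 ± 0.18, adjusted p = 0.326); the effects differed by 1.22 ± 0.26 (adjusted p = 0.00686).

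Ifih1 (MDA5) was at 0.78, 0.77, 0.75 and 0.57 in LFD, 0.30, 0.68, -0.031, 0.18 and 0.35 in LFD MTX50, 0.57, 0.48, 0.32 and 0.22 in HFD and 1.13, 0.62, 0.19, 0.70 and 0.84 in HFD MTX50 mice. Its groups overlapped on both diets, and the difference of -0.42 ± 0.16 on LFD was not called (limma adjusted p = 0.0592), while that between the effects was (0.72 ± 0.23, adjusted p = 0.0301). A dimmer second sequence of Ifih1 gave 0.16 between the effects (adjusted p = 0.721). For Ddx58 (RIG-I) the answer depended on the sequence. The brighter of its 2 sequences gave -0.20 ± 0.092 on LFD and 0.12 ± 0.092 on HFD, neither called, and the dimmer gave -0.96 on LFD (adjusted p = 0.00397), 0.73 on HFD (adjusted p = 0.0281) and 1.69 between the effects (adjusted p = 0.00464). Zbp1, a sensor of left-handed nucleic acids, differed by 0.20 or less in every comparison on the sequence read here, and by 0.91 on HFD on a dimmer one (adjusted p = 0.0849), and was called on neither.

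The IFIT proteins bind viral RNA and block its translation. Ifit1 lay at -0.92, -0.9999, -1.23 and -2.12 in LFD and at -2.32, -2.46, -3.02, -2.78 and -4.11 in LFD MTX50 mice, a fall of 1.62 ± 0.40 or 3.07-fold without overlap (limma adjusted p = 0.00982). In the HFD mice it lay at -1.07, -1.43, -1.84 and -2.53 and in the HFD MTX50 mice at -0.40, -0.66, -1.83, -1.04 and -1.78, which overlapped (0.57 ± 0.40, adjusted p = 0.334). The effects differed by 2.19 ± 0.56 (adjusted p = 0.0129). On HFD its difference was 1.66 within the shared slide and -0.30 outside it.

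Ifit3 fell by 1.33 ± 0.38 on LFD (limma adjusted p = 0.0183), from -0.77 ± 0.41 (SD, n = 4) to -2.10 ± 0.84 (SD, n = 5), with no overlap. On HFD it was at -0.93 ± 0.45 and -0.93 ± 0.58, and the difference between the effects was not called (1.33 ± 0.54, adjusted p = 0.0714). Ifit3 has a near-identical copy, Ifit3b, so that the signal of the 2 cannot be fully separated; Ifit3b gave -1.03 ± 0.26 on LFD (adjusted p = 0.0111) and 1.43 ± 0.37 between the effects (adjusted p = 0.013). Ifit2 was not called, with -0.22 ± 0.37 on LFD.

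The OAS proteins make short adenylate chains that switch on the antiviral nuclease RNase L. Of 6 measured here only Oasl1 was called in a treatment comparison. Among all genes 28.1% were called on LFD, 11% on HFD and 26.8% for the difference between the effects. Oasl1, a relative without that enzymatic activity that holds back translation of Irf7, was at 1.81, 2.04, 1.78 and 1.43 in LFD and 0.71, 1.26, 0.33, 0.94 and 0.20 in LFD MTX50 mice. It was at 1.08, 1.61, 1.41 and 0.85 in HFD and 2.38, 2.05, 0.58, 1.63 and 1.63 in HFD MTX50 mice, where mouse 3 lay below the whole HFD group and the other 4 above it. It fell by 1.08 ± 0.30 on LFD without overlap (limma adjusted p = 0.0154), and the effects differed by 1.496 ± 0.42 (adjusted p = 0.0175). Oas1g, well above background on 4 of 4 LFD and 4 of 5 LFD MTX50 arrays and on all HFD and HFD MTX50 arrays, rose by 0.54 ± 0.19 from LFD to HFD (adjusted p = 0.0404) and was not called for treatment. Oas1a, which is closely related in sequence to Oas1g, Oas2, Oas3 and Oasl2 were not called; on LFD their differences ran from -0.70 (Oasl2) to 0.34 (Oas3), and Oas2 gave 0.42 ± 0.14 on HFD (adjusted p = 0.0532), with all treated mice above all untreated mice.

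Isg15, a ubiquitin-like protein that is joined to other proteins during an interferon response, rose on HFD. It was at 2.16, 2.05, 2.01 and 1.78 in HFD and 2.65, 2.44, 2.10, 2.40 and 2.49 in HFD MTX50 mice, of which only mouse 3 reached the HFD range. On LFD it was at 2.13, 2.21, 2.07 and 1.97 and with methotrexate at 1.96, 2.09, 1.84, 1.94 and 1.74, which overlapped. The rise on HFD was 0.41 ± 0.11 or 1.33-fold (limma adjusted p = 0.0307), and the effects differed by 0.59 ± 0.16 (adjusted p = 0.0151). Within the shared slide the difference was 0.65 and outside it 0.22. A dimmer second sequence was not called and gave 0.41 on HFD (adjusted p = 0.239) and 0.80 between the effects (adjusted p = 0.0783).

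Usp18, which removes ISG15 from proteins and restrains the type I receptor, showed how unevenly the HFD MTX50 mice behaved. Mice 1 and 2, on the slide shared with HFD mice, were at 1.12 and 1.04, and mice 3, 4 and 5 at -1.26, -0.40 and -1.50. The HFD mice lay between -1.42 and -0.63. Its difference was 0.76 ± 0.43 over all mice and was not called (limma adjusted p = 0.236), 2.26 within the shared slide and -0.30 outside it. Ifi44 was likewise highest in those mice, with mouse 1 at -0.91, mouse 2 at -1.90 and the other 3 treated mice between -3.56 and -2.64. Usp18 and Ifi44 were singled out after their values were seen.

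Of the 3 antigen processing genes 2 fell on LFD, beside 10.5% of all genes. All 3 differences on HFD were below 0, beside 54.5% of those of all genes. Tap1, a subunit of the transporter that carries peptides to MHC class I, lay at -2.48, -2.74, -2.87 and -2.87 in LFD and -3.75, -3.46, -3.41, -3.60 and -4.25 in LFD MTX50 mice, a fall of 0.95 ± 0.18 without overlap (limma adjusted p = 0.003). In HFD it lay at -2.64, -2.66, -2.38 and -2.76 and in HFD MTX50 at -2.86, -3.26, -3.26, -2.50 and -2.76, with a difference of -0.32 ± 0.18 (adjusted p = 0.232). Psmb9, a subunit of the immunoproteasome whose promoter window overlaps that of Tap1, lay at 0.21, 0.042, -0.039 and -0.12 in LFD and -0.79, -0.31, -0.88, -0.84 and -1.11 in LFD MTX50 mice, again without overlap. Its levels were 0.19, 0.22, 0.37 and 0.18 in HFD and -0.22, -0.64, -0.47, 0.087 and 0.32 in HFD MTX50 mice. It fell by 0.81 ± 0.18 on LFD (adjusted p = 0.00579) and differed by -0.42 ± 0.18 on HFD (adjusted p = 0.118). The difference between the effects was not called for either gene (adjusted p = 0.0712 and 0.258), nor was Psmb8 in any comparison.

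The remaining effectors act at different steps of virus growth or in cell death. Parp14, an ADP-ribosyltransferase of macrophage and interferon signalling, was called in all 4 comparisons. It was at 0.94, 0.75, 0.66 and 0.81 in LFD, 0.23, 0.45, -0.055, 0.21 and 0.018 in LFD MTX50, 0.45, 0.18, -0.10 and -0.30 in HFD and 1.44, 0.95, 0.55, 0.95 and 1.22 in HFD MTX50 mice. No pair of compared groups overlapped. Parp14 fell by 0.73 ± 0.18 from LFD to HFD (limma adjusted p = 0.0105) and by 0.62 ± 0.17 with methotrexate on LFD (adjusted p = 0.0162), and rose by 0.96 ± 0.17 with methotrexate on HFD (adjusted p = 0.0078). The effects differed by 1.58 ± 0.24 (adjusted p = 0.00382). On HFD the difference was 1.39 within the shared slide and 0.59 outside it.

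Xaf1, an antagonist of the apoptosis inhibitor XIAP, was at 0.11, -0.19, -0.46 and -0.53 in LFD and -1.28, -1.03, -1.63, -1.56 and -2.05 in LFD MTX50 mice, without overlap. It was at 1.25, -0.023, -0.59 and -0.29 in HFD and -0.18, 0.81, 2.06, 1.64 and 1.61 in HFD MTX50 mice, with HFD mouse 1 above 2 of the treated mice. It fell by 1.24 ± 0.41 on LFD (limma adjusted p = 0.0317) and differed by 1.10 ± 0.41 on HFD (adjusted p = 0.081), so that the effects differed by 2.34 ± 0.57 or 5.08-fold (adjusted p = 0.0105). Its difference on HFD was 0.76 within the shared slide and 1.16 outside it. Its dimmer second sequence was not called and gave 0.38 on LFD and -0.39 between the effects.

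Rsad2 (viperin), which makes a chain-terminating nucleotide, and Cmpk2, a mitochondrial nucleotide kinase, lie next to each other on chromosome 12. Rsad2 was at -1.57, -2.02, -1.60 and -2.72 in LFD, -3.19, -2.71, -2.78, -2.49 and -4.14 in LFD MTX50, -1.60, -1.78, -1.82 and -2.63 in HFD and -0.63, -0.88, -2.49, -1.23 and -1.65 in HFD MTX50 mice, with overlap on both diets. Cmpk2 was at -1.94, -2.76, -2.28 and -2.61 in LFD, -4.19, -3.07, -3.69, -2.87 and -4.92 in LFD MTX50, -2.47, -2.73, -2.51 and -3.37 in HFD and -1.52, -2.29, -3.27, -2.61 and -3.04 in HFD MTX50 mice, with overlap on HFD only. For both genes mouse 5 was the lowest of the LFD MTX50 group and mouse 1 the highest of the HFD MTX50 group. Rsad2 fell by 1.09 ± 0.38 on LFD (limma adjusted p = 0.0434) with a difference between the effects of 1.67 ± 0.54 (adjusted p = 0.0326), and Cmpk2 by 1.35 ± 0.39 (adjusted p = 0.0199) with 1.57 ± 0.55 (adjusted p = 0.0448). The second sequence of Cmpk2 was not called, with -0.79 on LFD (adjusted p = 0.0534) and 0.81 between the effects (adjusted p = 0.156).

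Bst2 (tetherin), which holds budding viruses at the cell surface, lay at 2.09, 2.03, 1.99 and 2.06 in LFD and 1.06, 1.67, 1.39, 2.15 and 0.82 in LFD MTX50 mice. LFD MTX50 mouse 4 was above all LFD mice and the other 4 below them, and the gene fell by 0.62 ± 0.21 (limma adjusted p = 0.0347). It was at 1.44, 1.35, 1.69 and 1.46 in HFD and 1.92, 2.02, 1.37, 1.44 and 1.77 in HFD MTX50 mice, and the effects differed by 0.84 ± 0.29 (adjusted p = 0.0434). Ifitm3, which blocks the entry of enveloped viruses, was at 4.64, 4.86, 5.10 and 4.73 in LFD, 4.68, 4.22, 4.00, 4.38 and 4.44 in LFD MTX50, 5.01, 3.89, 3.99 and 4.27 in HFD and 5.04, 5.20, 4.55, 4.81 and 5.06 in HFD MTX50 mice. Its groups overlapped on both diets and it was called only for the difference between the effects (1.13 ± 0.29, adjusted p = 0.0122), with -0.49 ± 0.20 on LFD (adjusted p = 0.0756) and 0.64 ± 0.20 on HFD (adjusted p = 0.0509).

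Some of these calls depended on single arrays. When each of the 18 arrays was left out in turn, the difference between the effects was no longer called in 14 of the 18 fits for Bst2 and in 13 for Cmpk2. The fall of Irgm1 from LFD to HFD was lost in 11, and the rise of Oas1g from LFD to HFD, the rise of Irf9 on HFD and the fall of Rsad2 on LFD were each lost in 8. The other calls named here were lost in at most 7.

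**Figure D3:**
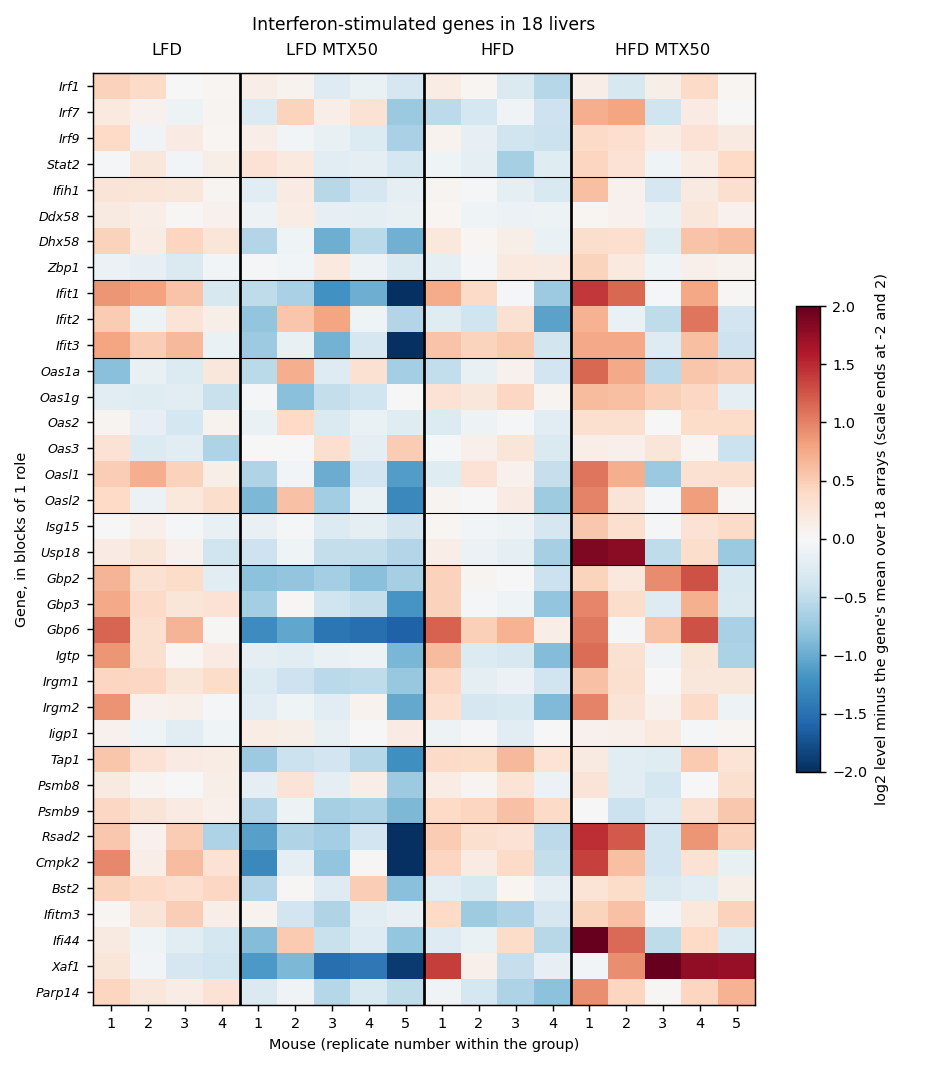
Log2 level of each of the 36 genes (rows, in blocks by role) in each of the 18 mice (columns, by group), shown as the difference from the gene's mean over all arrays; blue is lower and red higher. The LFD MTX50 columns are mostly blue, with mouse 5 the darkest, and HFD MTX50 mouse 1 holds the most red.

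Within a group, many of the genes had their lowest or highest level in the same mouse. The mean level of the 36 genes was -0.25 ± 0.15 (SD, n = 4) in LFD, -0.83 ± 0.27 (n = 5) in LFD MTX50, -0.46 ± 0.23 (n = 4) in HFD and -0.10 ± 0.29 (n = 5) in HFD MTX50 mice. The highest LFD MTX50 mouse (-0.50) lay below the lowest LFD mouse (-0.42), whereas the HFD MTX50 mice (-0.46 to 0.27) overlapped the HFD mice (-0.78 to -0.23). LFD MTX50 mouse 5, alone on slide 3, was the lowest of its group for 24 of the 36 genes, beside 25.9% of all genes. HFD mouse 4 was the lowest of its group for 26 genes, beside 19.3% of all genes, and HFD MTX50 mouse 3 for 23, beside 15.6%. LFD mouse 1 was the highest of its group for 27 genes, beside 29.4% of all genes. Within a group the median SD of the 36 genes was 0.21 to 0.37, beside 0.14 to 0.27 over all genes.

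**Figure D4:**
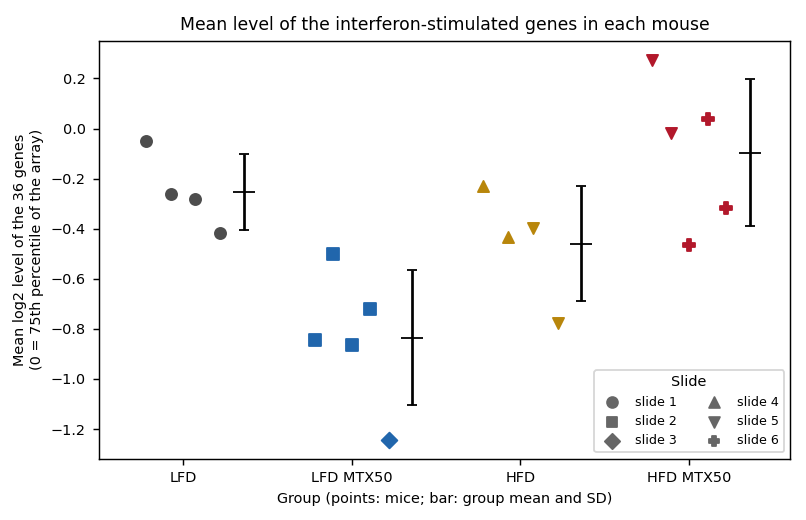
Mean log2 level of the 36 genes in each mouse (points, with a marker for each slide) and the group mean with its SD (bars). All 5 LFD MTX50 mice lie below the 4 LFD mice, and of the HFD MTX50 mice the pair on slide 5 lies above the 2 HFD mice of that slide.

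Ligands, receptors and signalling genes were read from a list of their own. Of 26 tested, 2 rose and 0 fell with methotrexate on LFD, 7 rose and 2 fell on HFD, and the difference between the effects was called above 0 for 5 and below 0 for 4; the medians were 0.13, 0.26 and 0.14. Among all genes 17.6% rose and 10.5% fell on LFD, 4.83% rose and 6.13% fell on HFD, and the difference was called above 0 for 8.66% and below 0 for 18.1%. The 2 genes that fell on HFD were interferons. Ifnb1, which encodes interferon-beta, fell by 0.81 ± 0.20 (limma adjusted p = 0.0236), and Ifnl3, an interferon-lambda, by 0.47 ± 0.14 (adjusted p = 0.0407). Ifnb1 was dim: it was well above background on 10 of 18 arrays, 4 of 4 in HFD and 2 of 5 in HFD MTX50. Untreated HFD mice had more than LFD mice of Ifnb1 (0.84 ± 0.22, adjusted p = 0.0125) and of Ifnl3 (0.47 ± 0.15, adjusted p = 0.0269). The 4 differences between the effects below 0 were those of Ifnl3 (-0.78 ± 0.20, adjusted p = 0.0121), Ifna4 (-0.69), Ifna2 (-0.68) and Ifna1 (-0.53). Of these, the Ifna genes are close copies of one another. Group means ran from 0.47 to 0.95 for Ifnl3, -0.39 to -0.016 for Ifna1, -0.89 to -0.40 for Ifna2 and -5.10 to -4.55 for Ifna4. Whether these sequences also read other transcripts was not tested. Socs3, a feedback inhibitor of cytokine signalling, rose on both diets, by 1.42 ± 0.34 on LFD (limma adjusted p = 0.00886) and 1.84 ± 0.34 on HFD (adjusted p = 0.00854). Ifngr1, the ligand-binding chain of the interferon-gamma receptor, rose on HFD by 0.65 ± 0.19 (adjusted p = 0.0395), as did Irf8, a factor of macrophages and dendritic cells (0.56 ± 0.17, adjusted p = 0.042). Jak2 had a called difference between the effects of 1.08 ± 0.30 (adjusted p = 0.0161). Ifnar1 of the type I receptor (-0.089 ± 0.11 on LFD and 0.11 ± 0.11 on HFD) and Irf3 (0.88 ± 0.52 and -0.13 ± 0.52) were not called.

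Of 18 other nucleic acid sensors and adaptors, 5 fell and 1 rose on LFD with methotrexate, 0 were called on HFD and 5 had a called difference between the effects, all above 0, beside 10.5% of all genes that fell and 17.6% that rose on LFD and 8.66% with a called difference above 0. Tlr3, the endosomal receptor of double-stranded RNA, fell by 1.43 ± 0.39 on LFD (limma adjusted p = 0.0144) and its effects differed by 1.91 ± 0.55 (adjusted p = 0.0189). Tlr7, the receptor of single-stranded RNA, fell by 0.53 ± 0.17 on LFD (adjusted p = 0.0319) and differed by 0.99 ± 0.24 between the effects (adjusted p = 0.011). Traf3 and Mavs, the adaptors downstream of these receptors and of the RNA helicases, fell by 0.57 ± 0.12 (adjusted p = 0.00579) and 0.43 ± 0.14 (adjusted p = 0.0293).

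A further 53 interferon-stimulated genes, which were not among the 38, were tested as well. With methotrexate on LFD 15 fell and 5 rose, on HFD 5 rose and 1 fell, and the difference between the effects was called above 0 for 14 and below 0 for 3; the medians were -0.17, 0.22 and 0.46. The shares of all genes were 10.5% and 17.6% for falls and rises on LFD, 4.83% and 6.13% for rises and falls on HFD, and 8.66% and 18.1% for differences above and below 0. Trim21, an intracellular antibody receptor, fell by 0.70 ± 0.16 on LFD (limma adjusted p = 0.00768), rose by 0.74 ± 0.16 on HFD (adjusted p = 0.0148) and differed by 1.45 ± 0.23 between the effects (adjusted p = 0.0045). Herc6, the ligase that attaches ISG15 in mice, fell by 0.55 ± 0.16 on LFD (adjusted p = 0.0194) and rose by 0.53 ± 0.16 on HFD (adjusted p = 0.041). Pnpt1, a mitochondrial RNA-degrading enzyme, fell by 1.04 ± 0.31 on LFD (adjusted p = 0.0209) and differed by 1.61 ± 0.43 between the effects (adjusted p = 0.015). Gbp4 fell by 1.47 ± 0.35 on LFD (adjusted p = 0.00812), and so did Cxcl9, a chemokine that interferon-gamma induces (1.33 ± 0.45, adjusted p = 0.0374). Tgtp1, a GTPase of the immunity-related family, went the other way: it rose by 0.53 ± 0.18 on LFD (adjusted p = 0.0365) and its effects differed by -1.05 ± 0.25 (adjusted p = 0.01).

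In the MHC class I list of 13 genes, 2 fell on LFD with methotrexate, 1 rose on HFD, and 3 had a called difference between the effects, all above 0, beside 10.5% of all genes that fell on LFD, 4.83% that rose on HFD and 8.66% with a difference above 0. H2-D1, a heavy chain of MHC class I, fell by 0.51 ± 0.092 (limma adjusted p = 0.00237) and B2m, the light chain, by 0.44 ± 0.16 (adjusted p = 0.0441) on LFD. Nlrc5, the transactivator of MHC class I genes, rose by 0.85 ± 0.14 on HFD (adjusted p = 0.00665) and differed by 0.84 ± 0.19 between the effects (adjusted p = 0.00833).

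Some markers of cell types differed between the same groups, and not all in the direction of the interferon-stimulated genes. Their part in the results was not tested. Of 12 Kupffer cell and macrophage markers, all well above background on every array, Cd68 fell by 0.94 ± 0.26 (limma adjusted p = 0.0168) and Csf1r by 0.54 ± 0.19 (adjusted p = 0.0399) on LFD with methotrexate. The effects differed by 1.46 ± 0.37 for Cd68 and 0.97 ± 0.27 for Csf1r (adjusted p = 0.0126 and 0.0162). The mean level of the whole list was 0.26 to 0.90 in LFD and 0.47 to 1.21 in LFD MTX50 mice. It was 0.34 to 0.83 in HFD and 0.72 to 1.44 in HFD MTX50 mice. The median difference of the list with methotrexate was 0.29 on LFD and 0.54 on HFD. Over the interferon-stimulated genes described here the median was -0.53 on LFD and 0.42 on HFD. Of 6 erythroid markers 1 rose and 3 fell on LFD with methotrexate, with differences of -4.82 ± 1.01 for Hba-a1, -6.40 ± 1.45 for Hbb-b1 and -2.99 ± 0.44 for Alas2 (adjusted p = 0.00473, 0.00652 and 0.000893). Their mean level was -1.86 to -1.01 in LFD, -4.17 to -3.47 in LFD MTX50, -1.98 to -1.41 in HFD and -3.77 to -0.02 in HFD MTX50 mice.

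Of 8 neutrophil and monocyte markers 2 rose on LFD (Ngp and Mmp8, each well above background on 0 of 4 LFD arrays and 7 of 18 in all), and the mean level of the list was -4.26 to -4.08 in LFD, -3.95 to -1.91 in LFD MTX50, -4.29 to -3.19 in HFD and -3.85 to 0.47 in HFD MTX50 mice. Of 13 T and NK cell markers 2 rose on LFD, of 6 B cell markers 2 rose, of 9 dendritic cell markers 1 rose, of 10 endothelial markers 1 rose, of 9 proliferation markers 2 rose and 1 fell, and of 10 hepatocyte markers 2 rose, beside 17.6% of all genes that rose on LFD. On HFD 0 T and NK cell, 0 dendritic cell, 0 neutrophil and monocyte and 0 proliferation markers were called, 1 B cell and 1 endothelial marker fell, 2 hepatocyte markers, and 1 macrophage marker and 1 erythroid marker rose, beside 4.83% of all genes that rose and 6.13% that fell. At an unadjusted p under 0.05 the limma fit gave 20 of the 36 interferon-stimulated genes on LFD and 12 on HFD, beside 41.5% and 30.8% of all genes.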

How the data were processed

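Liver RNA of 18 mice was hybridised to 18 one-colour Agilent arrays, 1 mouse per array. The deposited files hold scanner intensity values made by the authors with Agilent Feature Extraction 10.7.3.1, in which the processed signal is already corrected for background; GEO's labels and the study's methods name different labelling kits. The deposited value table of the series holds background-subtracted intensity values on a linear scale and served as an alternative after log2 was taken.

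Here log2 of the processed signal was taken minus log2 of the array's 75th percentile over non-control spots. Spots marked as outliers were left out, spots of a probe were averaged, and probes well above background on at least 4 arrays were kept (35735 of 39429). The number of arrays limits the precision. Groups came from GEO's labels. Differences were tested with limma 3.58.1 (R 4.3.3) on the means of the 4 groups; p-values were adjusted over the kept probes by the Benjamini-Hochberg method, and calls were made at an adjusted p under 0.05. Probes were named through their RefSeq accessions (28025 probes, 21153 genes, of which 19597 were tested), and a gene was read on its kept probe with the highest mean. The code was tested on simulated data.

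The members and the companion lists were chosen with earlier results of these data known. Every array's value is given for the 12 members with the smallest adjusted p and for those called for the difference between the effects; of the companion lists, up to 4 called genes with the largest change in a comparison, and always Ifnar1, Ifngr1, Irf3, Irf8 and 1 further gene that is not reported here. Alternatives covered background, normalization, filters, variance model, test, threshold, slide, replicate number, probe and leaving out each array. The files hold no mean signal, so normexp was run on the median signal; on some arrays a few spots far below their local background drove its fit, and a normexp without them was added after seeing the data, as was the HFD comparison outside the shared slide.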

Additional observations from a re-analysis of the deposited data

Results flagged for a closer look

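In 144 sets of values, 1 gene in 1 group each, a single mouse stood far from the others of its group in 10; chance gives this in about 1 of 20. Ifih1 was at 0.57 in LFD mouse 4 (0.75 to 0.78 in the others) and Ddx58 at 0.87 in LFD MTX50 mouse 2 (0.53 to 0.61). Ifit3 was at -1.59 in HFD mouse 4 (-0.78 to -0.65). Oas1g was at -6.12 in LFD mouse 4 (-5.92 to -5.90) and at -5.85 in HFD MTX50 mouse 5 (-5.26 to -5.05). Oas2 was at -0.22 in LFD MTX50 mouse 2 (-0.90 to -0.74) and at -0.61 in HFD MTX50 mouse 3 (-0.30 to -0.25). Irgm2 was at 2.25 in LFD mouse 1 (1.33 to 1.45). LFD MTX50 mouse 5, alone on its slide, was low for Irgm2 at 0.33 (1.12 to 1.43) and for Igtp at 0.56 (1.26 to 1.36).

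The effect of methotrexate differed between the diets by the limma test of the difference itself for 18 genes on the sequence read here, with the higher value on HFD. Ifih1, Isg15, Gbp6, Irgm1, Cmpk2 and Xaf1 had a second kept sequence, on which this difference was not called and was -0.39 for Xaf1. Of genes outside the 18, second sequences were called above 0 for Ddx58 (1.69) and Iigp1 (0.71) and below 0 for Irf1 (-0.80). On the log2 scale the differences between the effects were 2.34 for Xaf1, 2.19 for Ifit1, 1.74 for Gbp6, 1.67 for Rsad2, 1.58 for Parp14, 1.57 for Cmpk2, 1.53 for Gbp2, 1.496 for Oasl1 and 1.38 for Gbp3. They were 1.22 for Dhx58, 1.21 for Irgm1, 1.19 for Irgm2, 1.13 for Ifitm3, 0.84 for Bst2, 0.82 for Irf9, 0.72 for Ifih1, 0.65 for Stat2 and 0.59 for Isg15. Slide 1 held all LFD mice and no mouse of another group, so slide and group cannot be told apart in these differences. The fit with slide as a random block cannot separate them, and the part of slide was not tested.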

How the results depend on the processing

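The medians of the 36 genes kept their sign under every alternative run, except that HFD against LFD came to 0.063 with normexp background. That of the difference between the effects ran from 0.68 to 1.10. With normexp the medians over all genes moved as well. For HFD against LFD the median over all genes was 0.38, above that of the 36 genes. For methotrexate on HFD it was 0.39, beside 0.37 over the 36 genes. That normexp fit was driven on several arrays by spots far below their local background. Percentages in brackets here are the share of all genes called in either direction. The fit gave 0 calls for HFD against LFD (0.0102%), 1 on LFD (1.73%), 0 on HFD (0%) and 0 for the difference between the effects (0%). It put Tap1 at 0.34 and Cmpk2 at 0.12 on LFD. Without those spots, an alternative chosen after seeing the data, the counts were 2, 15, 4 and 18 (18.1, 21.8, 8.55 and 19.4%). For HFD against LFD 3 genes were called (28.3%). The count was 0 with 2-fold added (2.86%), 0 at the unadjusted threshold of the methods with 2-fold (2.87%) and 1 with quantile normalization (19.2%). It was 5 with scaling to the median (27.8%) and 5 with only these groups fitted (41.7%). The methods' t-test gave 6 at their threshold (33.3%) and 6 after Benjamini-Hochberg (35.7%). With slide as a random block the count was 0 (1.94%), and with 1 array left out it was 1 to 5 (11.5 to 32.1%). For methotrexate on LFD 15 genes were called (28.1%). The count was 8 with 2-fold added (4.75%), 8 at the methods' unadjusted threshold with 2-fold (4.75%) and 2 with slide as a random block (1.73%). With 1 array left out it was 10 to 18 (16.3 to 31.7%). For methotrexate on HFD 4 genes were called (11%). The count was 0 with 2-fold added (0.975%) and 1 at the methods' unadjusted threshold with 2-fold (1.32%). It was 0 with only these groups fitted (0%) and 0 by the methods' t-test after Benjamini-Hochberg (0%). It was also 0 with slide as a fixed block (0%) and 0 within the shared slide (0%). With 1 array left out it was 1 to 7 (1.44 to 15.5%). The median for methotrexate on HFD was 0.70 with slide as a fixed block, 0.70 within the shared slide and 0.086 outside it. For the difference between the effects 18 genes were called (26.8%). The count was 8 with slide as a random block (6.37%) and 11 to 22 with 1 array left out (15.3 to 31.7%). Beyond the normexp fit, the cause of these changes was not tested.

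The replicate numbers did not pair the mice: deviations of same-numbered mice correlated at -0.31 to 0.25. With replicate number as a block the counts were 3, 13, 5 and 19, beside 27.1, 27.6, 5.17 and 25.8% of all genes. Dim signals limit Oas1g, which was not well above background on 1 LFD MTX50 array.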
